A study of Homo sapiens with 12 samples.

Results

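The genes described here are 41 translation initiation factors and eIF4E-binding proteins, 41 of the 57500 genes in the deposited count table. They were chosen by gene symbol and not by a cut on their values, though with earlier results of these data known. Each was read across 12 RNA-seq libraries. The study removed PACT, a double-stranded RNA-binding protein encoded by PRKRA and known as a regulator of the kinase PKR, from 2 triple-negative breast cancer cell lines with CRISPR-Cas9. HCC1806 and MDA-MB-468 are both established lines, and each was sequenced with 3 libraries of a control guide and 3 libraries of the PACT guide sgPACT-2. The control guide was sgC1 for HCC1806 and sgNTA for MDA-MB-468. Line and control guide thus cannot be told apart where control libraries enter a comparison between the lines. The depleted libraries of both lines carried the same guide, sgPACT-2. Whether the depleted cells were a pool or a clone, how long after editing they were collected, and whether the numbered replicates were separate cultures are not given in the sources used here. The p-values below measure the spread between these libraries, which may be technical.

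Initiation begins when eIF2, carrying GTP and the initiator tRNA, joins the small ribosomal subunit together with eIF1, eIF1A, eIF3 and eIF5. The eIF4F complex brings the mRNA: eIF4E binds the cap, eIF4G is the scaffold, and the eIF4A helicase unwinds the leader with eIF4B or eIF4H. Control acts at both entry points, since PKR and related kinases phosphorylate the alpha subunit of eIF2 and so block its exchange factor eIF2B, and the 4E-BPs occupy eIF4E until mTORC1 phosphorylates them. EIF4EBP1 is also known as a target of ATF4, the transcription factor whose own translation rises when eIF2 is phosphorylated. RNA-seq reads the mRNA of these factors and neither their protein nor their phosphorylation.

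Many mRNAs of the translation machinery start with a C followed by a run of pyrimidines, the element through which mTORC1 is known to control their translation, so the annotated starts are shown first. RefSeq promoter entries (GRCh38.p14) were found for 34 of the 41 genes, with none for EIF2S2, EIF3A, EIF3E, EIF3G, EIF3H, EIF3L and EIF4EBP1. Of the 34, 9 (26.5%) had at 1 or more listed starts a C followed by at least 4 further pyrimidines, against 5.14% of all 27305 genes in that table. Each window below holds the 12 bases before the annotated start and 18 from it, in the direction of transcription, and capitals mark the pyrimidine run that begins at the start.
EIF2A, chr3:150546775-150546804, plus strand: cccgagcggtttCTCTTTCCgggacaacat
EIF2D, chr1:206612448-206612477, minus strand: ttccagccgggcCCTTTTCgcggccgggcc
EIF2S3, chrX:24054944-24054973, plus strand: gtgatttccttcCTCTTTTggcaacatggc
EIF3D, chr22:36529149-36529178, minus strand: cgcgcatgtttcCTCTTTTCCTggtttctc
EIF3F, chr11:7987325-7987354, plus strand: cgcttccgcctcCTTCTTTCTCgacaagat
EIF3K, chr19:38619176-38619205, plus strand: cgtttccaccacCTCTTCCTgttcccgtcc
EIF3M, chr11:32583819-32583848, plus strand: cggcccagttccCTTTTCCggtcggcgtgg
EIF4A2, chr3:186783565-186783594, plus strand: gggcgccgctgtCTTTTCagtcgggcgctg
EIF4B, chr12:53006444-53006473, plus strand: cctcatccgggtCTTTTgcgttctctttcc
The listed starts of the other 25 lacked such a run, as in these 3 windows of factors described below.
EIF3I, chr1:32222395-32222424, plus strand: ttttccggtcttactcacgttgcggccttc
EIF4E, chr4:98929116-98929145, minus strand: tctggagcggttgtgcgatcagatcgatct
EIF4EBP2, chr10:70404133-70404162, plus strand: ccgccttcgcccgcttccggtcgtcgtcgt

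The HCC1806 libraries held 18640633 to 24704877 counts and the MDA-MB-468 libraries 34581754 to 44790741. The 41 genes made up 0.516% to 0.611% of each HCC1806 library and 0.724% to 0.777% of each MDA-MB-468 library. Levels are given as CPM, the count relative to the library total, scaled with edgeR's TMM factors, and levels of different genes are compared only per kb of exon. Exon length joins the exons of all annotated transcripts of a gene, so a rank per kb depends on the annotation. PRKRA, the targeted gene, was at 78.6, 82.6 and 72.1 CPM in sgC1 and 37.4, 36.0 and 37.3 CPM in sgPACT-2 libraries of HCC1806 (log2 fold change -1.06, SE 0.11, adjusted p = 0.00311 by edgeR's quasi-likelihood test with Benjamini-Hochberg adjustment, as for all adjusted p-values below). In MDA-MB-468 it was at 41.1, 45.9 and 46.9 against 39.1, 35.5 and 41.6 CPM (-0.19, SE 0.08, adjusted p = 0.383), so there the mRNA level gives no check of the labels; an edit need not lower the mRNA. Epithelial markers were present in every library. The receptor list (ESR1, PGR and ERBB2) summed to 166 to 232 CPM in HCC1806 and 131 to 152 CPM in MDA-MB-468 libraries. The fibroblast and endothelial list (COL1A1, COL1A2, DCN, PECAM1 and VWF) summed to 30.5 to 51.7 CPM in HCC1806 and 19.1 to 24.4 CPM in MDA-MB-468. PGR, COL1A2 and DCN, and of the leukocyte list PTPRC and CD3E, stayed at or under 1 CPM in all 12. The leukocyte list summed to 89.5 to 107 CPM in sgNTA and 77.2 to 80.1 CPM in sgPACT-2 libraries of MDA-MB-468, nearly all of it CD14, which fell there (-0.31, SE 0.07, adjusted p = 0.0194); its part in the results was not tested.

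No initiation factor or 4E-BP mRNA passed the test for a change with PACT depletion in either line. In HCC1806 0 of 41 passed (adjusted p under 0.05), beside 74 of 23485 genes tested (0.315%). In MDA-MB-468 0 of 41 passed, beside 323 of 21404 (1.51%). The test of whether the change differed between the lines also called 0 of 41, beside 33 of 27029 genes (0.122%). At an unadjusted p under 0.05 edgeR gave 4 of the 41 in HCC1806 (11.5% of all genes) and 1 in MDA-MB-468 (10.6%), with none in the difference between lines (8.39%); DESeq2 called none in any of the 3 at its adjusted threshold. The replicate numbers were taken to pair the libraries, though the titles give only the numbers. With the number as a block HCC1806 had 668 genes called (2.84%) and MDA-MB-468 had 1031 (4.82%). In both lines 0 of the 41 were among them. In these bulk libraries fewer cells of a kind and less RNA per cell cannot be told apart.

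The intervals give the precision of each estimate, gene by gene, in this fit. They rest on a spread between libraries that may be technical, and they do not cover other settings. The estimate for EIF5A in HCC1806, for example, moved widely when 1 library was left out, as given below. In MDA-MB-468 the 95% interval of the log2 fold change lay within ±0.5 for 40 of 41 genes, with a median half-width of 0.14. The exception was EIF4G3, which is nearly silent in that line. HCC1806 libraries were more variable: 29 of 41 intervals lay within ±0.5 and all 41 within ±1, with a median half-width of 0.294. The median change over the 41 was -0.07 in HCC1806 (13 positive, 28 negative; 0.02 over all genes tested) and -0.01 in MDA-MB-468 (19 positive, 22 negative; 0.00 over all genes). The lean in HCC1806 depended on the scaling: with library size alone it became 24 positive and 17 negative with a median of 0.03, while the median of all genes moved from 0.02 to 0.12. It was also near even (20 positive, 21 negative) without the sgC1 library numbered 1 or without the sgPACT-2 library numbered 3. The lean grew to 8 positive and 33 negative without the sgPACT-2 library numbered 1, and to 11 and 30 without the sgC1 library numbered 2. The MDA-MB-468 counts became 27 positive and 14 negative without the sgPACT-2 library numbered 2, and 24 and 17 with library size alone. Without the sgPACT-2 library numbered 1 they became 14 positive and 27 negative.

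**Figure D1:**
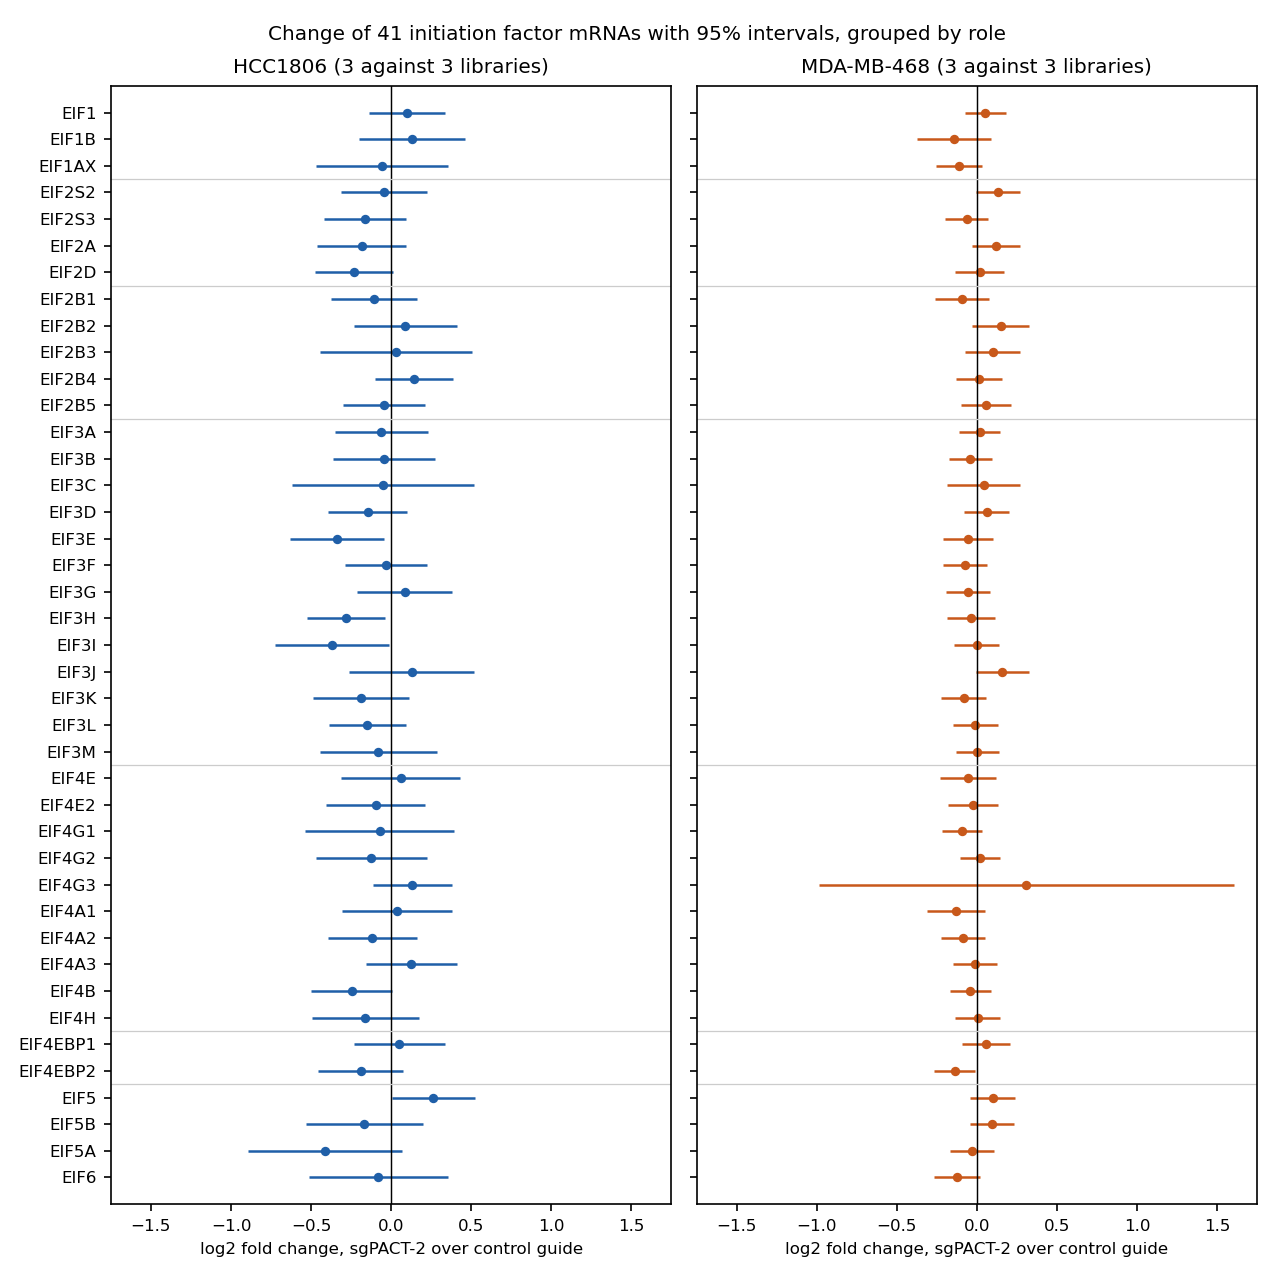
Log2 fold change of each of the 41 mRNAs, sgPACT-2 over the control guide, on the x axis for HCC1806 (left, blue) and MDA-MB-468 (right, orange), with genes in rows grouped by role; points are edgeR estimates and bars their 95% intervals (3 against 3 libraries). All intervals lie within ±1 in HCC1806, and 40 of 41 lie within ±0.5 in MDA-MB-468, the exception being EIF4G3.

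Part of a list of 12 ATF4 target genes passed as higher in the same libraries. The list was chosen with earlier results of these data known, so its rise supports nothing by itself. Of the 12, 5 rose in HCC1806 (ATF3, CHAC1, PPP1R15A, SESN2 and TRIB3) and 8 in MDA-MB-468. The median log2 change over the 12 was 0.92 and 0.45. Of all genes tested 0.315% and 1.51% passed in either direction. With all 12 libraries in 1 fit 8 rose in HCC1806 and 2 in MDA-MB-468 (ATF3 and PPP1R15A), and with the replicate block 8 rose in each line. Of the 26 other genes of initiation that are listed (among them EIF2S1, which encodes the phosphorylated alpha subunit of eIF2, PABPC1 and EIF4EBP3), 0 passed in either line. Other settings called a few: BZW2 and PABPC1 fell in HCC1806 with all 12 libraries in 1 fit, and LARP4 rose in MDA-MB-468 with the replicate block. EIF2S1 was at -0.03 (SE 0.19) in HCC1806, and its MDA-MB-468 value was 0.06 (SE 0.07). None of the elongation and termination genes (11 tested in HCC1806, 10 in MDA-MB-468) and none of the 9 genes between mTORC1 and the 4E-BPs passed; EEF1A1 fell in HCC1806 with all 12 libraries in 1 fit.

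The 4E-BPs, which hold eIF4E away from eIF4G, come first among the roles because of their known links to ATF4 and mTORC1. EIF4EBP1 (chr8:38030341-38060365 in GENCODE 29, GRCh38) was at 18.8, 18.9 and 21.4 CPM in sgC1 and 19.5, 20.6 and 20.5 CPM in sgPACT-2 libraries of HCC1806. In MDA-MB-468 it was at 66.1, 62.1 and 62.6 against 72.5, 60.7 and 63.5 CPM. The groups overlapped in both lines, with log2 fold changes of 0.05 (SE 0.13, adjusted p = 0.926) and 0.06 (SE 0.07, adjusted p = 0.856). The 95% interval ran from -0.23 to 0.34 for HCC1806 and from -0.09 to 0.21 for MDA-MB-468, so a doubling of this ATF4 target lay outside both. Its paralog EIF4EBP2 was at 359, 364 and 364 CPM in sgNTA and 339, 301 and 339 CPM in sgPACT-2 libraries of MDA-MB-468. All 3 depleted libraries were lower, the only one of the 41 genes without overlap there (7.94% of all genes were lower without overlap, and 6.79% higher). The change of -0.14 (SE 0.06) did not pass (adjusted p = 0.426), and over the other settings tried its adjusted p ran from 0.0145 to 1. The low end came from the replicate block with a correction for GC content and length (-0.18), the one setting that called it. In HCC1806 EIF4EBP2 was at 76.5, 76.8 and 78.5 against 70.4, 58.3 and 72.2 CPM, also without overlap (-0.19, SE 0.12, adjusted p = 0.61).

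Among the cap-binding and unwinding factors 0 of 10 passed in either line. EIF4E, the cap-binding protein, was at 30.7, 21.9 and 24.8 CPM in sgC1 and 32.5, 24.4 and 22.9 CPM in sgPACT-2 libraries of HCC1806 (0.06, SE 0.17). In MDA-MB-468 it was at 34.9, 33.4 and 31.7 against 35.0, 29 and 31.2 CPM (-0.06, SE 0.09). The values interleave in both lines. EIF4G1, the main eIF4G scaffold, was at 859, 678 and 729 CPM in sgC1 and 998, 611 and 524 CPM in sgPACT-2 libraries of HCC1806. The depleted library numbered 1 was the highest of all 6 and the other 2 the lowest, so that the change was -0.07 (SE 0.21, adjusted p = 0.94). In MDA-MB-468 EIF4G1 was at 626, 596 and 619 against 606, 549 and 552 CPM (-0.09, SE 0.06, adjusted p = 0.646). The helicase genes also overlapped between groups: EIF4A1 gave 0.03 (SE 0.16) and -0.13 (SE 0.09) in HCC1806 and MDA-MB-468. EIF4A2 gave -0.12 (SE 0.13) and -0.09 (SE 0.07). EIF4B, a cofactor of eIF4A, was lower without overlap in HCC1806, at 308, 332 and 289 against 257, 248 and 269 CPM, and did not pass (-0.25, SE 0.11, adjusted p = 0.449).

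The eIF3 complex, the scaffold on the small subunit, held the 3 members with the smallest p-values in HCC1806. EIF3H (chr8:116642130-116766925) was at 190, 177 and 180 CPM in sgC1 and 159, 142 and 144 CPM in sgPACT-2 libraries (-0.28, SE 0.11, adjusted p = 0.366). EIF3E was at 170, 140 and 139 against 102, 128 and 120 CPM (-0.34, SE 0.13, adjusted p = 0.367). EIF3I was at 109, 86.9 and 86.6 against 89.5, 68.5 and 58.8 CPM (-0.37, SE 0.16, adjusted p = 0.423). EIF3H and EIF3E did not overlap between the groups, EIF3I did, and all 3 were lower in each same-numbered pair. EIF3I passed under 1 other setting, the replicate block with a correction for GC content and length (-0.39, adjusted p = 0.0362); over all settings its adjusted p ran from 0.0362 to 0.758. Over the 13 subunits 2 were positive and 11 negative, with a median of -0.08, but with library size alone 7 were positive and 6 negative (median 0.03). In MDA-MB-468 the same 3 genes gave 0.00 (EIF3I, SE 0.07), -0.05 (EIF3E, SE 0.08) and -0.04 (EIF3H, SE 0.07). The test of the difference between lines did not separate them (adjusted p = 0.635 for EIF3I, 0.682 for EIF3E and 0.687 for EIF3H). The subunit with the smallest p there was EIF3J, the loosely bound one, at 58.3, 60.3 and 60.2 against 72.8, 54.5 and 70.7 CPM (0.16, SE 0.08, adjusted p = 0.511); 1 depleted library was below all 3 controls.

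No gene of eIF2, of the other initiator tRNA carriers or of the exchange factor eIF2B passed in either line. EIF2S2, the beta subunit, was at 120, 100.4 and 94.1 against 106, 97.2 and 97.4 CPM in HCC1806 (-0.05, SE 0.12). It was at 143, 146 and 142 against 173, 145 and 149 CPM in MDA-MB-468 (0.13, SE 0.07, adjusted p = 0.509). The eIF2B subunit genes ran from -0.11 to 0.14 for HCC1806 and from -0.09 to 0.15 for MDA-MB-468, with 3 of 5 and 4 of 5 positive. EIF2B5, the catalytic subunit, was at 80.5, 92.0 and 81.0 against 79.3, 84.9 and 78.8 CPM in HCC1806 (-0.05, SE 0.12), and at 48.5, 44.3 and 46.9 against 50.5, 44.4 and 48.7 CPM in MDA-MB-468 (0.05, SE 0.08). EIF2B4 was the one eIF2B subunit without overlap in HCC1806, higher in all 3 depleted libraries (0.14, SE 0.11, adjusted p = 0.696). EIF1, which guards start-codon choice, was at 221, 208 and 207 against 228, 216 and 230 CPM in HCC1806 (0.10, SE 0.11) and at 306, 284 and 299 against 320, 289 and 304 CPM in MDA-MB-468 (0.05, SE 0.06).

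The factors of the late steps held both ends of the range in HCC1806. EIF5, the GTPase-activating protein of eIF2, was at 141, 135 and 142 CPM in sgC1 and 181, 148 and 169 CPM in sgPACT-2 libraries. All 3 depleted libraries were higher, and the change of 0.26 (SE 0.12) was the largest positive one of the 41 but did not pass (adjusted p = 0.427). In MDA-MB-468 EIF5 was at 330, 305 and 314 against 354, 293 and 360 CPM (0.10, SE 0.07, adjusted p = 0.678). EIF5A, a factor that the ribosome needs at difficult peptide bonds and that was singled out after its values were seen, was at 417, 311 and 364 against 379, 240 and 191 CPM in HCC1806. It had the largest negative change (-0.42, SE 0.22, adjusted p = 0.517) and its depleted libraries spread more widely than the controls (SD 97.1 against 53.1 CPM). Without the depleted library numbered 1 it passed (-0.73, SE 0.15, adjusted p = 0.0294). It also passed with both HCC1806 libraries numbered 1 left out, a setting added after the data were seen (-0.63, adjusted p = 0.0342). Over all settings its adjusted p ran from 0.0294 to 0.791. In MDA-MB-468 EIF5A was at 442, 401 and 415 against 446, 361 and 411 CPM (-0.03, SE 0.07, adjusted p = 0.921). The difference between lines was 0.39 (SE 0.25, adjusted p = 0.732); it became 0.72 (adjusted p = 0.0382) without that library and 0.62 (adjusted p = 0.0473) without the pair.

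Counted over all 41, 2 genes were higher and 8 lower in HCC1806 with no overlap between the groups, beside 8.67% and 8.95% of all genes tested. The 8 were EIF2D, EIF2S3, EIF3D, EIF3E, EIF3H, EIF3L, EIF4B and EIF4EBP2. In same-numbered pairs 17 of 41 were lower in 3 of 3 pairs and 6 higher, beside 20.2% and 18% of all genes. The epithelial marker list also leaned down in these libraries: its summed level ran from 1865 to 2112 CPM in sgC1 and from 1351 to 1600 CPM in sgPACT-2, with 5 of 5 markers negative, and its part in the result was not tested. In MDA-MB-468 9 of 41 were lower and 2 higher in 3 of 3 pairs, beside 19.8% and 14.9%.

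**Figure D2:**
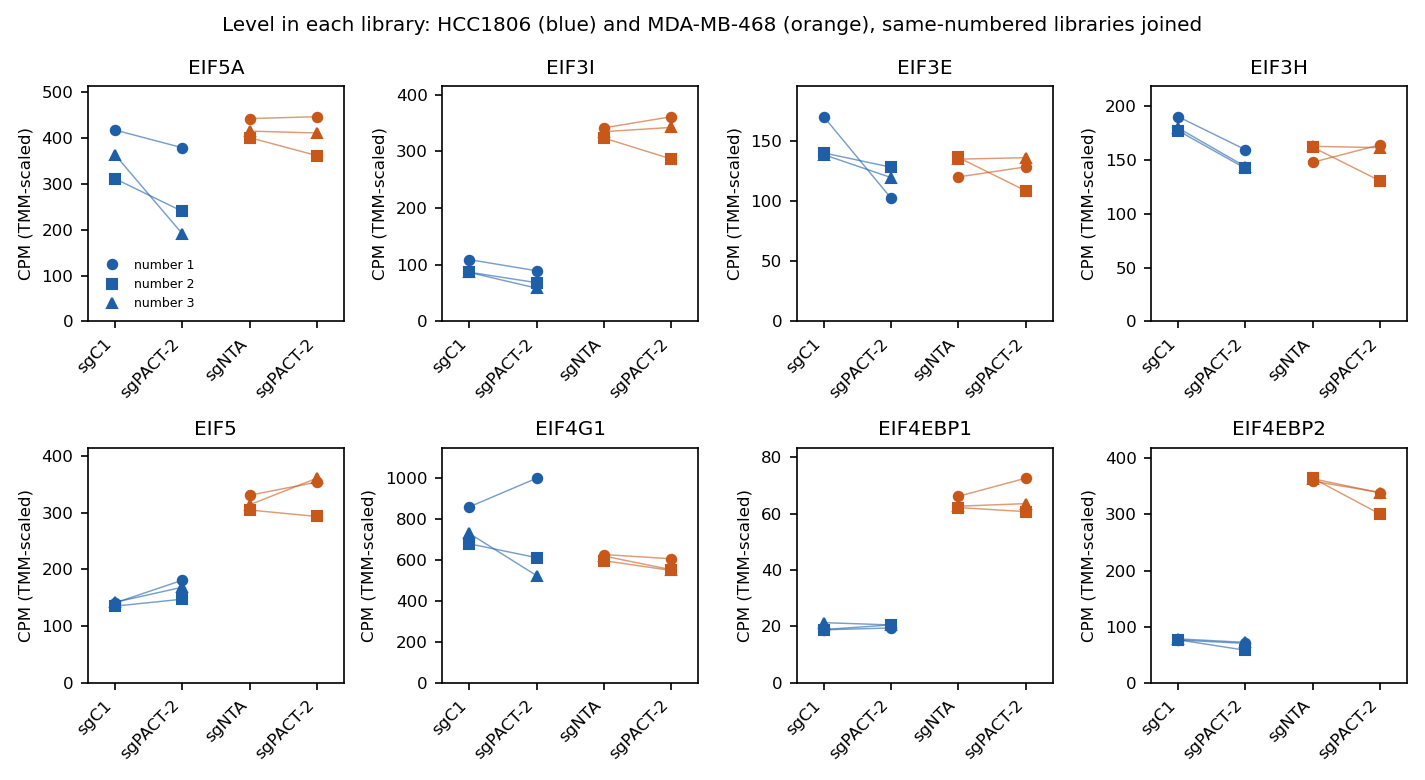
Level in each library (CPM, y axis from 0) of 8 factors, with the 4 groups on the x axis, HCC1806 in blue and MDA-MB-468 in orange, marker shape for the replicate number and lines joining same-numbered libraries. EIF3E and EIF3H do not overlap between the HCC1806 groups, and EIF4EBP1 overlaps in both lines. In the depleted HCC1806 library numbered 1, EIF4G1 is above all sgC1 libraries (998 CPM). EIF5A in that library (379 CPM) lies within the sgC1 range and above the other depleted libraries.

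The pyrimidine starts shown above were then set beside the changes. All 9 genes with such a start had a negative log2 fold change in HCC1806, from -0.25 (EIF4B) to -0.03 (EIF3F) with a median of -0.16. The 25 with other starts had 11 positive and 14 negative changes with a median of -0.05. This grouping was made after the values were seen and carries no test. Among all genes tested in HCC1806, 837 had a pyrimidine start, with 61.4% negative and a median of -0.06, against 51.0% negative of 11398 with other starts. With library size alone 2 of the 9 became positive, and with both libraries numbered 1 left out 1 did. In MDA-MB-468 4 of the 9 were positive and 5 negative (median -0.04). Any mRNA difference here is a level and not a translation rate.

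**Figure D3:**
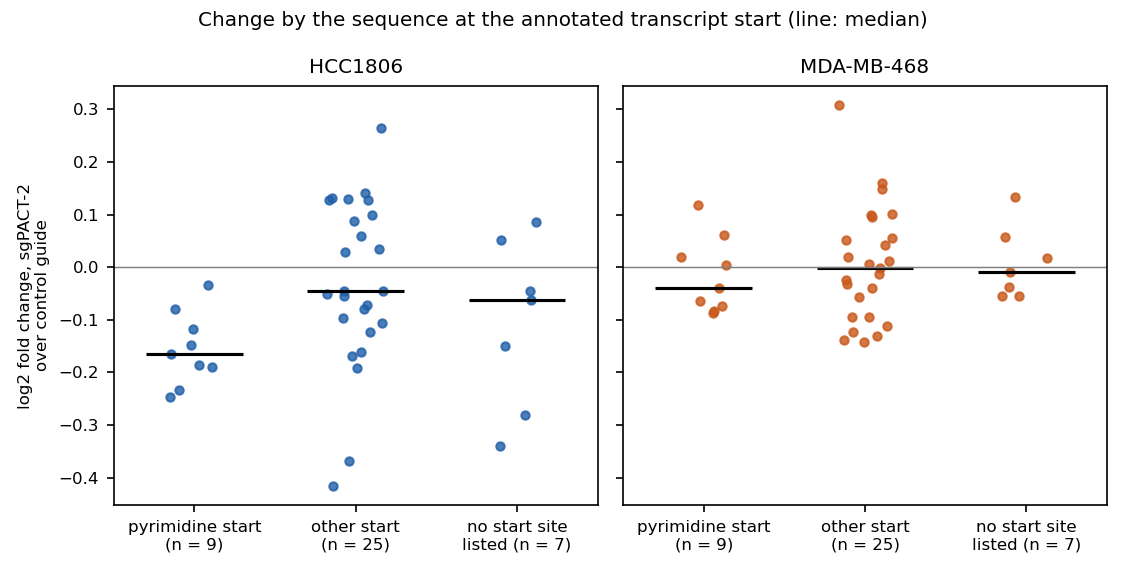
Log2 fold change, sgPACT-2 over the control guide (y axis), of each of the 41 mRNAs, split on the x axis by whether its annotated start has a pyrimidine run (9), another sequence (25) or no promoter entry (7), with the line at the median; HCC1806 left and MDA-MB-468 right. All 9 genes with a pyrimidine start lie below 0 in HCC1806, and in MDA-MB-468 4 lie above and 5 below.

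Other motifs were searched on both strands of the promoter entries, which run from 250 bases before to 50 after the start. TTGCATCA, a C/EBP-ATF response element bound by ATF4, was in 0 of the 34 and in 1.08% of all 27305 genes. With so low a share over all genes, 0 of 34 says little. EIF4EBP1, the known ATF4 target, has no promoter entry and was not searched. The E-box CACGTG, which MYC and related factors bind, was in 9 of the 34 (26.5%) and in 8.77% of all genes: EIF1B, EIF2B3, EIF3F, EIF3K, EIF4A3, EIF4B, EIF4E, EIF4G1 and EIF4H. EIF3F, EIF3K and EIF4B had both the E-box and a pyrimidine start. A match is a run of letters and not a shown binding site.

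The levels differed more between the lines than with depletion. Between the control libraries 32 of the 41 genes passed, beside 74.3% of all 27029 genes tested, so the share in this fit is near the background. Of these 5 were higher in HCC1806 (40.1% of all genes) and 27 higher in MDA-MB-468 (34.2%). The median log2 ratio of HCC1806 over MDA-MB-468 was -0.75 for the 41 and 0.26 for all genes. With library size alone the split was 11 higher in HCC1806 and 25 higher in MDA-MB-468, and the median of all genes moved to 0.51. With GC and length correction it was 12 and 26 (92.7% of the 41 passed, beside 70.2% of all genes). With this correction and the replicate block it was 13 and 27 (97.6%, beside 72.7%). Requiring a mean count of at least 50 gave 12 and 24. The median of all genes was 0.07, 0.07 and 0.01 in these fits. The number higher in HCC1806 thus depended on the setting, while more were higher in MDA-MB-468 in each fit named here.

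The widest gap was in the eIF4G scaffolds. EIF4G3 (chr1:20806292-21176888), a paralog of EIF4G1, was at 129, 111 and 116 CPM in the sgC1 libraries of HCC1806 and at 0.0557, 0.608 and 0.748 CPM in the sgNTA libraries of MDA-MB-468. The MDA-MB-468 values rest on 2, 20 and 30 counts, against 3099, 2486 and 2745 in HCC1806. The log2 difference was 7.95 (SE 0.36, adjusted p = 2.55e-12), or 253-fold between the means. The depleted libraries repeated the pattern, with 137, 123 and 127 CPM in HCC1806 and 0.37, 0.27 and 1.11 CPM in MDA-MB-468. Its neighbours were not silent: HP1BP3 was at 306 and 186 CPM and ECE1 at 151 and 140 CPM in HCC1806 and MDA-MB-468. Of 30 protein-coding genes within 1 Mb, 14 were over 10 CPM in HCC1806, and 1 of these 14, SH2D5, was under 1 CPM in MDA-MB-468.

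EIF4G2, a relative that lacks the eIF4E-binding site and serves other routes of initiation, went the other way. It was at 290, 227 and 200.4 CPM in the HCC1806 control libraries and 1168, 1130 and 1197 CPM in those of MDA-MB-468 (-2.28, SE 0.14). EIF4G1 was closer, at 755 ± 92.9 and 614 ± 15.7 CPM (SD, n = 3; 0.30, SE 0.17, adjusted p = 0.118). Per kb of exon, EIF4G1 was 69.6% ± 1.62, EIF4G2 20.9% ± 1.91 and EIF4G3 9.45% ± 0.475 of the summed eIF4G level in HCC1806 (SD, n = 3). In MDA-MB-468 EIF4G2 was 64.4% ± 0.404, EIF4G1 35.6% ± 0.42 and EIF4G3 0.0235% ± 0.0182. The order of EIF4G1 and EIF4G2 was thus reversed between the lines, and it was the same in the depleted libraries, where EIF4G1 held 68.2% ± 4.77 in HCC1806 but 33.8% ± 1.46 in MDA-MB-468.

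The helicase paralogs were both higher in HCC1806. EIF4A2 was at 489, 406 and 385 against 177, 181 and 188 CPM (1.23, SE 0.10). EIF4A1 was at 78.5, 65.6 and 84.9 against 30.4, 35.4 and 31.1 CPM (1.24, SE 0.14), and 48.6% of its exon bases are shared with other annotated genes, so its count is uncertain. EIF4A3, the related helicase of the exon junction complex, was higher in MDA-MB-468 (-2.21, SE 0.11). EIF2B5 (0.86, SE 0.10) and EIF2A (0.32, SE 0.11) completed the 5 that were higher in HCC1806 with TMM scaling and no block or correction. EIF2A did not pass without the sgC1 library numbered 1 or the sgNTA library numbered 1 or 2. Other eIF2B subunits went the other way, with EIF2B3 at -1.57 and EIF2B2 at -1.03, and EIF2B1 did not pass (0.19, SE 0.11).

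Within eIF3, 9 of 13 subunits were higher in MDA-MB-468 and none passed as higher in HCC1806, though with the replicate block 2 did (EIF3A and EIF3H) and with library size alone 3 (EIF3A, EIF3E and EIF3H). EIF3M showed the largest difference, at 33.6, 22.5 and 29.6 against 374, 370 and 386 CPM (-3.72, SE 0.15), or 13.2-fold. EIF3G followed at 67.6, 60.5 and 64.1 against 450.4, 407 and 409 CPM (-2.72, SE 0.12). EIF3K was at 34.7, 41.5 and 38.5 against 226, 206 and 204 CPM (-2.47, SE 0.12). In none of the 3 did the libraries of the lines overlap. The 4 subunits that did not pass in the main fit (TMM scaling, no block) were EIF3A (0.21, SE 0.11), EIF3B (-0.10, SE 0.12), EIF3E (0.20, SE 0.12) and EIF3H (0.21, SE 0.10). Each of them passed under some other setting. EIF3A and EIF3B are the core scaffold on which other subunits assemble. Per kb of exon the subunits ran in HCC1806 from 3.85 (EIF3M) to 54.6 (EIF3I) and in MDA-MB-468 from 12.9 (EIF3F) to 193 (EIF3I), leaving out EIF3C. These ends depend on the annotated exon lengths, 1.725 kb for EIF3I, 7.428 kb for EIF3M and 9.431 kb for EIF3F. Before division by length EIF3M was above EIF3I in the sgNTA libraries of MDA-MB-468 (means 376 and 333 CPM). The order of the subunits is therefore uncertain. EIF3C, at 0.915 and 1.9 CPM per kb, has the near-identical copy EIF3CL, and its count is uncertain.

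Both 4E-BPs were higher in MDA-MB-468 while their partner eIF4E differed little. EIF4EBP1 was 3.23-fold (log2 -1.69, SE 0.11) and EIF4EBP2 4.69-fold (-2.23, SE 0.10) higher in the control libraries of MDA-MB-468. EIF4E was 1.29-fold higher (-0.37, SE 0.14, adjusted p = 0.0285), a call that was lost with library size alone (-0.13, adjusted p = 0.348), with DESeq2, and without the sgC1 library numbered 2 or 3 or the sgNTA library numbered 1 or 2; its adjusted p ran up to 0.689 over the settings. EIF1AX, which encodes eIF1A, was 4.54-fold and EIF5 2.27-fold higher in MDA-MB-468. EIF5A had the highest level of the 41 per kb of exon in HCC1806 (129 CPM per kb) and was second to EIF3I in MDA-MB-468 (149 CPM per kb). These ranks depend on the annotated exon lengths. The difference of EIF5A between the lines did not pass in the main fit (-0.20, SE 0.18, adjusted p = 0.311), though it did under some other setting.

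**Figure D4:**
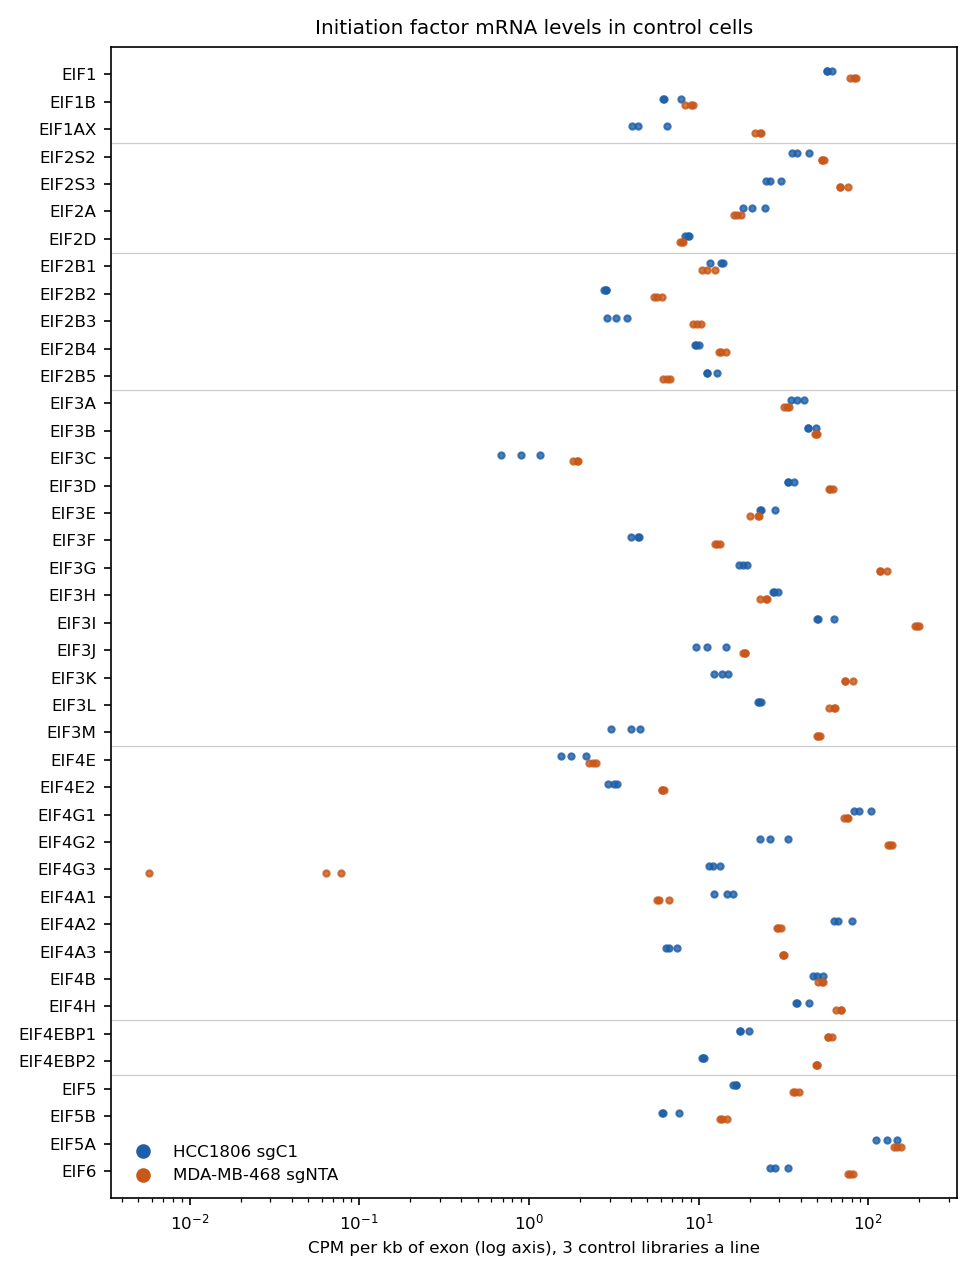
Level of each of the 41 mRNAs in the control libraries (CPM per kb of exon, log axis on x) of HCC1806 (blue) and MDA-MB-468 (orange), 3 points a line, with genes in rows grouped by role. EIF4G3 lies far to the left in MDA-MB-468 (mean 0.049 CPM per kb against 12.4 in HCC1806), and EIF3M, EIF3G and EIF3K are higher in MDA-MB-468.

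Some of these counts are less sure than others. In GENCODE 29, 23 of the 41 genes have exon bases that overlap another gene, most in EIF3L (51.8%), EIF4A1 (48.6%), EIF4E2 (24.2%) and EIF2B2 (23.6%). Processed copies are also common, with 71 pseudogenes named after 20 of the 41. Whether counting used strand and how reads with several matches were treated are not given in the sources used here.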

How the data were processed

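RNA was measured by sequencing of rRNA-depleted total RNA from 12 cell-line libraries, 3 in each of 4 groups taken from the sample titles. The deposited table holds raw counts per gene that the authors made; per the submitters' processing notes the tools were Trimmomatic 0.36, STAR 2.5.2b and featureCounts of Subread 1.5.2, with build GRCh38. The strand setting is not given in the sources used here. The 41 genes and the gene lists were chosen with earlier results of these data known, and the choice supports nothing by itself. Depth sets the precision: at the totals reported above, each of the 41 passed the filter on low counts in both lines.

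Counts were fitted with edgeR 4.0.16 in R 4.3.3 (TMM, filterByExpr, quasi-likelihood test, two-sided, Benjamini-Hochberg over all genes tested, threshold 0.05). Each depletion contrast used the 6 libraries of its line, because the spread differed between lines (biological coefficient of variation 0.204 for HCC1806, 0.0936 for MDA-MB-468). The difference between lines and the comparison of control libraries used all 12. Exon lengths, overlaps and coordinates came from GENCODE 29, which held 56898 of the 57500 gene IDs. Per-library values were given for 1 or more genes of each role, the 3 smallest p-values in each line, and the 4 largest differences each way between control libraries; EIF5A, EIF4B and EIF2B4 were added after their values were seen. Scripts were tested on simulated counts. Alternatives were another fit or tool (limma 3.58.1, DESeq2 1.42.0), scaling, filter, threshold, GC and length correction, and each library left out.

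Same-numbered libraries deviated together from their group means in each pair (correlations over 15918 genes of 0.553, 0.37 and 0.164 for HCC1806, then 0.223, 0.116 and 0.21 for MDA-MB-468), so the numbers, which come from the titles, were taken to pair the samples. One pair of unlike numbers in HCC1806, control 2 with depleted 3, correlated at 0.438, above 2 of the same-numbered pairs.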

Additional observations from a re-analysis of the deposited data

How the results depend on the processing

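None of the 41 that was called in the main fit changed direction under a setting run. Between control libraries EIF3B, EIF4B and EIF5A were not called in the main fit but were under some other setting. Their log2 ratios took both signs over the settings (-0.18 to 0.21, -0.15 to 0.25 and -0.33 to 0.11). The lean of the 41 in each line also turned with library size alone, as reported above. Genes called in HCC1806 numbered 74 and became 672 with all 12 libraries in 1 fit, 333 with DESeq2, 118 with library size only, 645 without a filter, 46 when a mean count of at least 50 was required, 28 at adjusted p under 0.01 and 330 with both libraries numbered 1 left out. In MDA-MB-468 the 323 became 46 with all 12 libraries and 166 at adjusted p under 0.01. The 33 genes whose change differed between lines became 13 with limma voom, 178 with DESeq2, 275 without a filter, 9 at adjusted p under 0.01 and 166 without the pair numbered 1. The 20070 that differed between control libraries became 13022 when a mean count of at least 50 was required. Fewer genes were tested there (15918 against 27029), and the share called was higher (81.8% against 74.3%). What moved the counts between fits and scalings was not tested.

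With the replicate block the counts were 668, 1031, 271 and 20655, and with block and GC and length correction 1027, 875, 316 and 19646. Of the 41 initiation factors 0 passed in either line or in the difference between lines under the block alone and under all 12 libraries in 1 fit, DESeq2, and the other scalings and filters run; with the block 35 differed between control libraries. With block and correction 1 passed in HCC1806 (EIF3I) and 1 in MDA-MB-468 (EIF4EBP2). With the pair numbered 1 left out 1 passed in HCC1806 and 1 in the difference between lines, EIF5A in both.

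Leaving out 1 library gave 18 to 428 genes in HCC1806, 158 to 315 in MDA-MB-468, 9 to 168 for the difference between lines and 18973 to 21248 between control libraries. For the initiation factors it gave 0 to 1, 0 to 0, 0 to 1 and 29 to 34. The library that brought EIF5A past the threshold when left out was the HCC1806 sgPACT-2 library numbered 1. Depth limits EIF4G3 in MDA-MB-468 (2 to 36 counts a library), and the spread between libraries limits HCC1806.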

Other observations

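EIF4E3, an atypical cap-binding relative outside the 41, was also unequal between the lines: the log2 ratio of HCC1806 over MDA-MB-468 was -3.74 (SE 0.18, adjusted p = 3.98e-12 by edgeR's quasi-likelihood test) in the control libraries. EEF1A2, a paralog of the elongation factor EEF1A1, differed the other way by 12.98 (SE 0.26), while EEF1A1 was at -1.46 (SE 0.09). A log2 ratio as large as that of EEF1A2 depends on how few counts the lower line, MDA-MB-468, holds, so its size is uncertain. PABPC1, the poly(A)-binding protein that contacts eIF4G, was at -1.13 (SE 0.09). With depletion in HCC1806, PABPC1 was at 1431, 1388 and 1427 CPM in sgC1 and 1095, 1090 and 1145 CPM in sgPACT-2 libraries without overlap (-0.33, SE 0.11), and did not pass (adjusted p = 0.276). EEF1A1 was at -0.41 (SE 0.12, adjusted p = 0.21) there. With all 12 libraries in 1 fit both passed, PABPC1 at -0.35 (adjusted p = 0.0396) and EEF1A1 at -0.43 (adjusted p = 0.0183).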
